A study of Mus musculus with 12 samples.

Results

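Activins, follistatin and the TGF beta proteins were examined in mouse epidermis as 10 genes of one signalling system: the activin subunit genes Inhba and Inhbb, the activin-binding protein gene Fst, the activin receptor genes Acvr1b and Acvr2a, the ligand genes Tgfb1, Tgfb2 and Tgfb3, and the receptor genes Tgfbr1 and Tgfbr2. They were chosen by gene symbol, and all 10 were among the 14533 genes of the count table. RNA was sequenced from scraped, untreated, non-lesional dorsal epidermis of 12 C57BL/6 mice, 1 library a mouse. The 6 WT mice carried floxed Pparg alleles and no Krt14-Cre, and the 6 Pparg-/-epi mice carried the same floxed alleles with 1 copy of Krt14-Cre, whose keratin 14 promoter is active in basal keratinocytes and the cells that descend from them, so both groups shared the floxed gene. Mice are named WT 1 to 6 and Pparg-/-epi 7 to 12. WT comprised 3 female and 3 male mice and Pparg-/-epi 4 female and 2 male mice, and both groups were 8 to 13 weeks old by the labels. Skin was scraped until the vascular bed under the epidermis showed, so the libraries could include cells of the superficial dermis.

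Inhba and Inhbb encode the beta subunits that pair to form activin A, activin B or activin AB, secreted growth factors known in skin for their rise after wounding. Follistatin, the product of Fst, binds activins and keeps them from their receptors. Activins bind a type II receptor such as the product of Acvr2a, which recruits the type I receptor ACVR1B, while the TGF beta ligands, secreted in a latent complex, use TGFBR2 and TGFBR1. Both arms pass the signal to SMAD2 and SMAD3, and TGF beta is known in epidermis for restraining keratinocyte division.

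The libraries held 10120840 to 18851255 counts, and the totals of the groups did not differ by an exact two-sided permutation test (p = 0.965). Values are CPM, counts scaled with TMM to a library of 1000000, in which 1 count stood for 0.0520 to 0.107 CPM. A gene was called altered where its log2 fold change was 0.6 or more in either direction and its Benjamini-Hochberg adjusted p in edgeR's quasi-likelihood test was under 0.05. Summed markers of basal keratinocytes were 8169 to 14630 CPM in WT against 11020 to 15330 CPM in Pparg-/-epi, which fits the labelled tissue, and summed fibroblast markers, at 941 to 33810 and 5046 to 10630 CPM, were high in both groups as well. Single mice also held markers of muscle and fat. Summed striated muscle markers were 9633 CPM in WT 5 against 2.83 to 382.2 CPM in the other mice. Summed adipocyte markers were 131.6 CPM in WT 2 against 2.71 to 49.1 CPM in the other mice. In such bulk samples fewer cells of a type and less RNA per cell cannot be told apart. Counts over the whole Pparg gene did not check the genotype, because a Cre-recombined allele can still give a shortened transcript: Pparg was 0.533 to 14.3 CPM in WT against 1.33 to 6.49 CPM in Pparg-/-epi.

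Of the 10 genes, 1 was altered, Inhba, which was higher in Pparg-/-epi epidermis. Altered genes made up 10.3% of all genes tested, 5.19% higher and 5.08% lower, so 1 of 10 was near the background. Inhba was also the 1 gene of the 10 whose groups did not overlap, against 7.9% of all genes and 3.95% in the higher direction. The median log2 fold change of the 10 was 0.42, beside -0.01 over all genes, with 7 values above 0 and 3 below. An adjusted p under 0.05 at any fold change was reached by 2 of the 10, Inhba and Tgfb1, and by 15.4% of all genes.

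**Figure D1:**
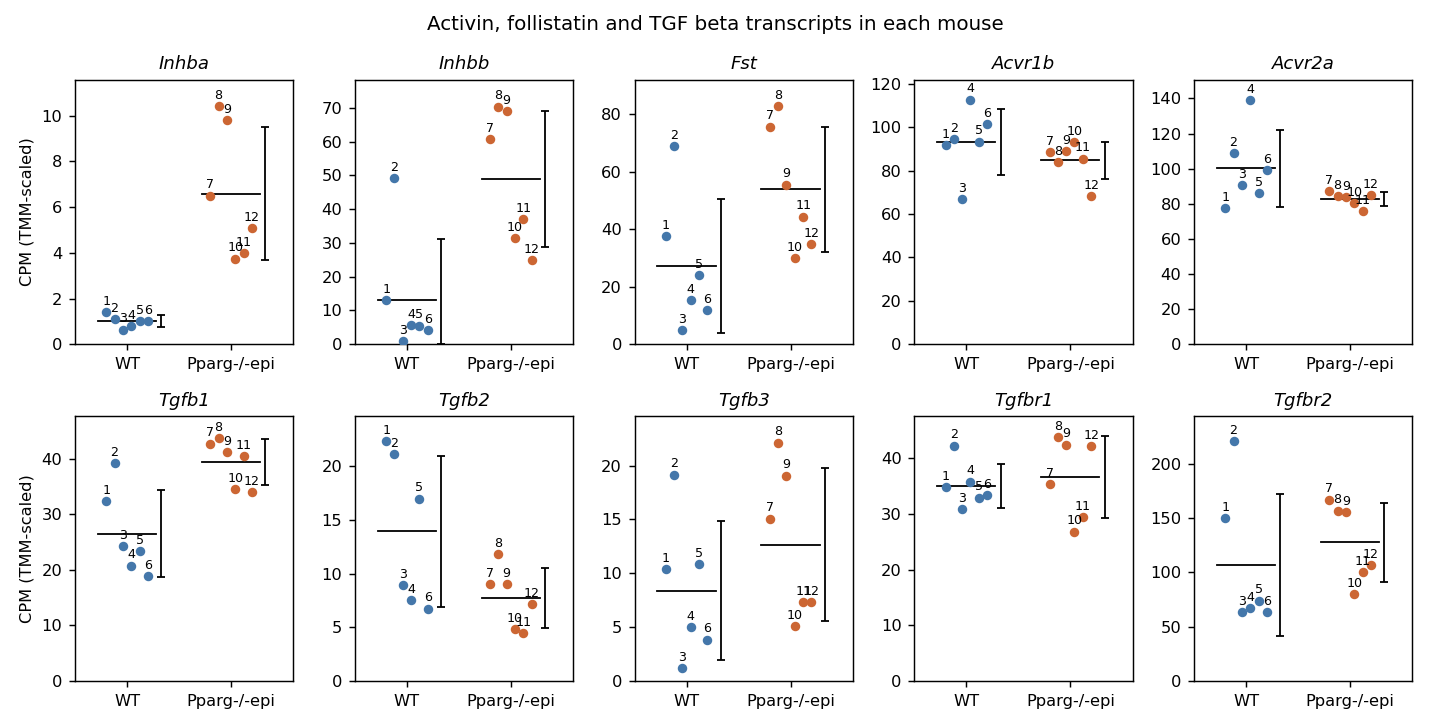
CPM (vertical axis, linear, from 0) of each of the 10 genes in each of 12 mice, numbered 1 to 6 (WT, blue) and 7 to 12 (Pparg-/-epi, orange), with the group mean as a line and its SD as a bar whose lower end is cut at 0. Inhba separates the groups, at 0.639 to 1.41 CPM in WT against 3.74 to 10.4 CPM in Pparg-/-epi, while the groups of the other 9 genes overlap.

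Inhba gives the subunit of activin A. Its table entry lies on chromosome 13, plus strand, at 16014475 to 16027211 of mm10. In WT mice 1 to 6 Inhba was 1.41, 1.11, 0.639, 0.807, 1.03 and 1.01 CPM, from 6 to 22 counts a library. In Pparg-/-epi mice 7 to 12 it was 6.50, 10.4, 9.81, 3.74, 3.98 and 5.07 CPM, from 44 to 172 counts. No WT value reached the lowest Pparg-/-epi value, and mice 7, 8 and 9 were the highest. The means were 1.00 ± 0.263 CPM (SD, n = 6) in WT and 6.59 ± 2.91 CPM (SD, n = 6) in Pparg-/-epi, a log2 fold change of 2.70 with a standard error of 0.32 and an edgeR adjusted p of 3e-04, or 6.50-fold. The SD among WT mice was the size that counting error alone would give at these depths, 0.263 CPM, whereas among Pparg-/-epi mice it was 2.91 CPM against a counting SD of 0.667 CPM. Inhba was altered without any single mouse, at 2.504 to 2.82, and of all the alternatives run it lost the call only with male mice alone (3 WT and 2 Pparg-/-epi), at 2.05 and an adjusted p of 0.164. Counts covered 1529 exon bases, 23.9% of those in the GENCODE M21 gene, which reaches 2624 bases further upstream and 4410 further downstream, so levels of Inhba are those of part of its transcripts. Summed mast cell markers, all 7 of which were altered and higher, moved in the same direction, from 20.0 to 95.3 CPM in WT to 137.6 to 249.9 CPM in Pparg-/-epi. Within Pparg-/-epi those sums were 137.6 to 181.7 CPM in mice 7 to 9, where Inhba was highest, and 156.2 to 249.9 CPM in mice 10 to 12. Summed markers of other cell types also separated the groups without overlap. Those of neutrophils, with 2 of 7 markers listed and 1 altered (Cxcr2, higher), were 0.944 to 4.92 CPM for WT and 9.71 to 17.0 CPM for Pparg-/-epi. Those of sebocytes, with 5 of 7 listed markers lower, were 414 to 1127 and 173 to 293 CPM. Hair follicle stem cell and outer root sheath markers, with 1 of 8 higher and 1 lower, summed to 3101 to 4832 and 1615 to 2235 CPM. The lower marker, Krt15, was 2058 to 4407 CPM in WT against 599.9 to 1423 CPM in Pparg-/-epi. The higher marker was Postn, and the median log2 fold change of the 8 was -0.05. The part of these cell types in the difference was not tested.

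Inhbb gives the subunit of activin B and lies on chromosome 1, minus strand, at 119415465 to 119422248. In WT mice 1 to 6 it was 13.1, 49.1, 0.959, 5.65, 5.53 and 4.09 CPM, a 51.2-fold range. In Pparg-/-epi mice 7 to 12 Inhbb was 60.8, 70.4, 69.0, 31.4, 37.2 and 24.9 CPM, a 2.83-fold range. WT 2 lay within the Pparg-/-epi values and the other 5 WT mice lay below all of them. Group means of Inhbb were 13.1 ± 18.1 and 48.9 ± 20.1 CPM (SD, n = 6 each), a log2 difference of 1.89 with a standard error of 0.70, a 95% interval of 0.38 to 3.39 and an edgeR adjusted p of 0.0878, so Inhbb was not called. Without WT 2 the log2 fold change of Inhbb was 3.03 with an adjusted p of 0.00136, and with RNA integrity (RIN) as a covariate it was 1.98 with 0.0161. The other 11 fits without 1 mouse did not call Inhbb. Its log2 fold change was 3.55 without WT 1 and 2 and 1.21 without Pparg-/-epi 7, 8 and 9. The call also turned on the test, since Inhbb was called by the edgeR likelihood ratio test, at 1.90 with an adjusted p of 0.0400, and by DESeq2, at 1.91 with 0.0496. The study used likelihood ratio tests in edgeR and lists Inhbb among its higher genes. WT 2 and Pparg-/-epi 7 had the highest RIN, 8.6, followed by Pparg-/-epi 8 at 8.5.

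Fst lies on chromosome 13, minus strand, at 114452262 to 114458951. It was 37.7, 69.0, 5.01, 15.5, 24.0 and 11.8 CPM in WT mice 1 to 6 and 75.7, 82.8, 55.5, 29.9, 44.4 and 34.8 CPM in Pparg-/-epi mice 7 to 12. WT 1 and WT 2 lay inside the Pparg-/-epi values and the other 4 WT mice below them. Means were 27.2 ± 23.4 and 53.9 ± 21.7 CPM (SD, n = 6 each), a log2 difference of 0.98 with a 95% interval of -0.11 to 2.07 and an adjusted p of 0.218 by edgeR. Without WT 2 Fst was called, at a log2 fold change of 1.51 and an edgeR adjusted p of 0.0268. The other 11 fits without 1 mouse did not call Fst. Its log2 fold change was 1.92 without WT 1 and 2 and 0.39 without Pparg-/-epi 7, 8 and 9.

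Neither activin receptor was called. Acvr1b, the type I receptor (chromosome 15, 101174125 to 101212601), was 66.7 to 112.7 CPM in WT against 68.2 to 93.0 CPM in Pparg-/-epi, with medians of 93.9 and 87.1 CPM, a log2 difference of -0.14 with a 95% interval of -0.39 to 0.11. Acvr2a, the type II receptor (chromosome 2, 48814109 to 48903264), was 77.7 to 139.0 CPM in WT against 75.9 to 87.2 CPM in Pparg-/-epi, with medians of 94.9 and 84.1 CPM. Its log2 difference was -0.28, with a 95% interval of -0.54 to -0.01 and an adjusted p of 0.152 by edgeR. The last exons of Acvr2a and Orc4, on opposite strands, share 511 bases in the table's gene models, and the strand setting of the counting is not given in the sources used here, so some of these counts may belong to Orc4. Both intervals lay inside a change of 0.6 on the log2 scale.

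Tgfb1, the founding ligand of the family (chromosome 7, 25687002 to 25704996), was 32.5, 39.3, 24.3, 20.8, 23.4 and 18.9 CPM in WT mice 1 to 6. It was 42.8, 43.7, 41.2, 34.6, 40.5 and 34.0 CPM in Pparg-/-epi mice 7 to 12. WT 2 lay within the Pparg-/-epi values and the other 5 WT mice below them. The means of Tgfb1 were 26.5 ± 7.80 and 39.5 ± 4.16 CPM (SD, n = 6 each), with a log2 difference of 0.57, a standard error of 0.17 and an edgeR adjusted p of 0.0373. The p passed the threshold and the fold fell just under 0.6, so Tgfb1 was not called. It was called without WT 1, WT 2, Pparg-/-epi 10 or Pparg-/-epi 12, at 0.61 to 0.71, and in 2 of the 14 other alternatives.

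Tgfb2 was the ligand gene with lower values in Pparg-/-epi (chromosome 1, minus strand, 186623186 to 186705992). WT mice 1 to 6 had 22.4, 21.1, 8.95, 7.53, 17.0 and 6.74 CPM, and Pparg-/-epi mice 7 to 12 had 9.05, 11.8, 9.02, 4.82, 4.43 and 7.13 CPM. WT 1, WT 2 and WT 5 lay above all Pparg-/-epi mice and the other 3 lay among them. Means of Tgfb2 were 14.0 ± 7.07 and 7.71 ± 2.82 CPM (SD, n = 6 each), and the log2 difference of -0.85 had a 95% interval of -1.61 to -0.09 and an edgeR adjusted p of 0.125. With RIN as a covariate Tgfb2 was called lower, at -1.12 with an edgeR adjusted p of 0.0282. Of the 12 fits without 1 mouse, 0 called Tgfb2, and of the 14 other alternatives 2 did, RIN among them.

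Tgfb3 (chromosome 12, 86056743 to 86079041) ranged from 1.17 to 19.2 CPM in WT against from 5.07 to 22.1 CPM in Pparg-/-epi, with medians of 7.66 and 11.2 CPM. The groups overlapped over most of their range, with a log2 difference of 0.59 and a 95% interval of -0.60 to 1.78. Tgfbr1, the type I receptor (chromosome 4, 47353305 to 47414924), was 30.9 to 42.3 CPM in WT against 26.9 to 43.9 CPM in Pparg-/-epi, a log2 difference of 0.07 with a 95% interval of -0.22 to 0.36. Tgfbr2, the type II receptor (chromosome 9, 116087695 to 116175363), was 149.8, 220.6, 63.3, 67.2, 74.0 and 63.6 CPM in WT mice 1 to 6 and 166.8, 156.6, 155.2, 80.1, 100.1 and 106.6 CPM in Pparg-/-epi mice 7 to 12. WT 2 was the highest of all 12 mice, and 4 WT mice lay below all Pparg-/-epi mice. The log2 difference of Tgfbr2 was 0.26 with a 95% interval of -0.46 to 0.98, and without WT 1 and WT 2 it was 0.91 with an edgeR adjusted p of 0.00624.

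**Figure D2:**
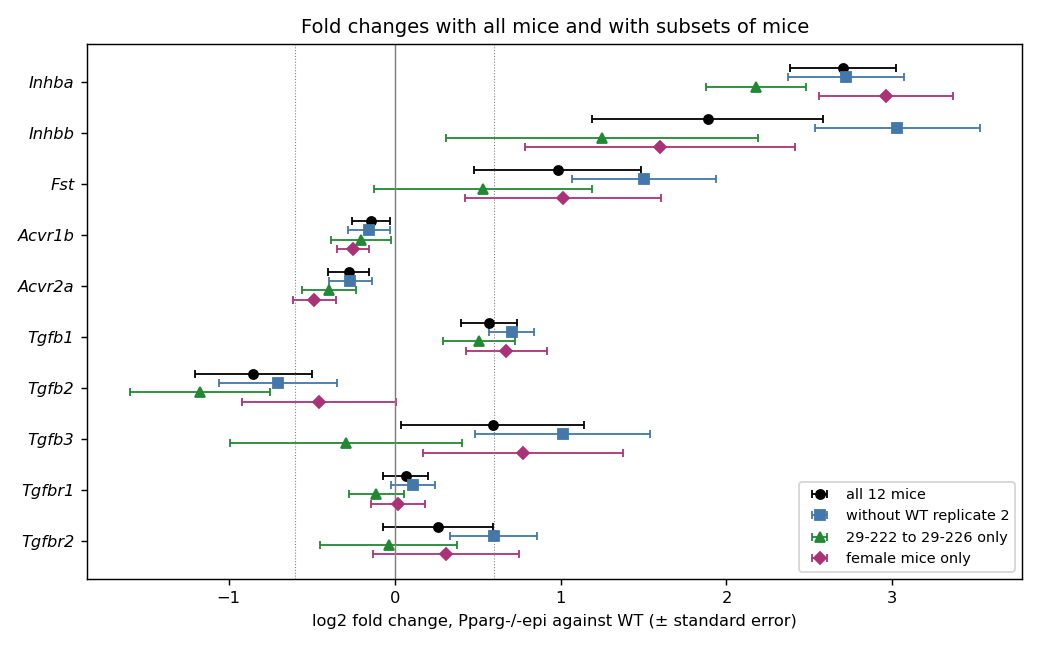
Log2 fold change of Pparg-/-epi against WT (horizontal axis, bars ± standard error) for each gene with all 12 mice, without WT 2, with the mice named 29-222 to 29-226 alone and with female mice alone, and dotted lines at -0.6 and 0.6. Inhba stays above 2 in all of these, Inhbb runs from 1.25 to 3.03, and Tgfb3 and Tgfbr2 fall to -0.29 and -0.04 in the mice named 29-222 to 29-226.

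Per kilobase of counted exon (RPKM), the mean levels of 3 of the 4 receptor genes, Acvr1b, Tgfbr2 and Acvr2a, led in WT, while Tgfbr1 was sixth. Mean levels in WT ran from Acvr1b at 28.5 RPKM through Tgfbr2 at 22.2, Acvr2a at 17.7, Tgfb1 at 12.7, Fst at 9.49, Tgfbr1 at 6.18, Inhbb at 3.07, Tgfb2 at 2.95 and Tgfb3 at 2.48 RPKM to Inhba at 0.654 RPKM. In Pparg-/-epi the order of mean levels was Tgfbr2 at 26.6 RPKM, Acvr1b at 25.8, Tgfb1 at 18.9, Fst at 18.8, Acvr2a at 14.6, Inhbb at 11.5, Tgfbr1 at 6.48, Inhba at 4.31, Tgfb3 at 3.74 and Tgfb2 at 1.63 RPKM. The ranges of each pair of neighbours overlapped in both orders. Both orders may also depend on the gene models. Besides Inhba, the counted exons covered 41.5% of GENCODE M21 exon bases for Tgfb1, 58.4% for Tgfbr2, 61.7% for Fst and 74.2% for Acvr1b. Those of Inhbb and Tgfb3 covered 100%. Within single mice, the neighbour with the higher mean was higher in all 6 Pparg-/-epi mice for Acvr1b over Tgfb1, Tgfbr1 over Inhba and Tgfb3 over Tgfb2, and for no neighbours in all 6 WT mice. The place of Inhbb above Tgfb2 in WT rests on WT 2, at 11.5 RPKM beside a WT median of 1.31 RPKM, and Inhbb exceeded Tgfb2 in 1 of 6 WT mice. Inhba moved from the lowest level of the 10, at percentile 9.94 of all listed genes, to the eighth of the 10, at percentile 35.1.

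**Figure D3:**
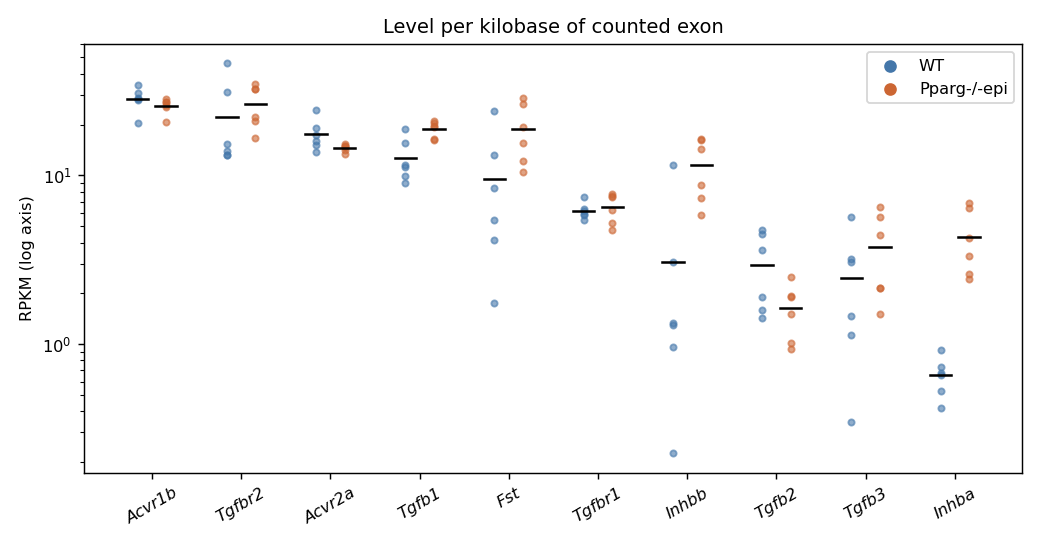
RPKM (vertical axis, logarithmic) of the 10 genes in each WT (blue) and Pparg-/-epi (orange) mouse, ordered by the WT mean, with group means as lines. Inhba is lowest in WT, at 0.654 RPKM on average, and reaches 4.31 RPKM in Pparg-/-epi, above Tgfb2 at 1.63 RPKM.

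Ratios of 2 of these genes within the same mouse were compared as well. Of the 45 pairs of the 10 genes, 15 (33.3%) had ratios that did not overlap between the groups, beside 8.61% of all pairs of listed genes. Of these, 6 were pairs with Inhba and 9 were pairs without it. Tgfb2 was in 6 of the 15, among them its pair with Inhba, so most of the 15 held 1 or both of these genes. Pairs share genes and so are not independent, and these ratios are given with no test. The RPKM ratio of Tgfb1 to Tgfb2 was 3.11 to 6.35 in WT against 8.34 to 20.6 in Pparg-/-epi. Accordingly Tgfb2 made up 12.3% to 20.3% of the summed RPKM of the 3 TGF beta ligands in WT, with a median of 14.6%, and 4.18% to 8.36% in Pparg-/-epi, with a median of 7.08%. The ratio of Inhbb to its antagonist's gene Fst was 0.129 to 0.479 in WT against 0.482 to 0.835 in Pparg-/-epi, a gap of little width. The ratio of Inhba to Fst did overlap, at 0.0302 to 0.239 in WT against 0.161 to 0.331 in Pparg-/-epi.

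Several of the 10 genes followed the same mice. The first number of a mouse name, whose meaning is not given in the sources used here, was 29-192 or 29-195 for Pparg-/-epi 7, 8 and 9, 29-217 for WT 1, 29-222 for WT 2 and Pparg-/-epi 10, 29-225 for Pparg-/-epi 11 and 12, and 29-226 for the other 4 WT mice. Within Pparg-/-epi, mice 7, 8 and 9, all female, exceeded mice 10, 11 and 12 in Inhba, Inhbb, Fst, Tgfb1, Tgfb2, Tgfb3 and Tgfbr2. Within WT, mice 1 and 2 were the highest in Inhba, Inhbb, Fst, Tgfb1, Tgfb2 and Tgfbr2. Summed markers of endothelial cells had a like order, at 84.1, 143.6, 10.8, 18.6, 40.2 and 8.69 CPM in WT mice 1 to 6 and 175.4, 219.1, 179.3, 36.9, 84.4 and 48.4 CPM in Pparg-/-epi mice 7 to 12, with 1 of 7 markers, Emcn, altered and higher. Macrophage markers were 258.0 and 486.5 CPM in WT 1 and 2 against 83.3 to 136.2 CPM in the other WT mice. They were 250.4 to 275.6 CPM in mice 7 to 9 against 159.8 to 185.1 CPM in mice 10 to 12. Pericyte and smooth muscle markers split alike, at 620.6 and 590.4 against 167.6 to 485.1 CPM in WT. In Pparg-/-epi they were 409.5 to 517.7 against 195.4 to 243.1 CPM. Summed hair matrix and shaft markers, of which 0 of 11 were altered, ranged from 11.5 to 930.5 CPM in WT against from 98.1 to 2588 CPM in Pparg-/-epi, and were highest in WT 2 and Pparg-/-epi 8. RIN followed the same mice as well, at 7.4 and 8.6 in WT 1 and 2 against 5.9 to 7.1 in the other WT mice, and at 8.6, 8.5 and 7.7 in Pparg-/-epi 7, 8 and 9 against 7.7, 5.7 and 7.1 in mice 10, 11 and 12. The part of these cells, of sex and of the mouse name in the levels of the 10 genes was not tested. In the 1 number that both groups share, 29-222, Pparg-/-epi 10 exceeded WT 2 in Inhba by 1.75 on the log2 scale, while the difference was -0.648 for Inhbb, -1.21 for Fst, -0.184 for Tgfb1, -2.13 for Tgfb2, -1.92 for Tgfb3 and -1.46 for Tgfbr2, between single mice with no replicate. Inhba was also called with the mice named 29-222 to 29-226 alone (5 WT and 3 Pparg-/-epi), at a log2 fold change of 2.18 and an edgeR adjusted p of 0.00791. A genotype by sex interaction had an adjusted p under 0.05 for 0 of the 10 genes and 0 of all genes by edgeR's quasi-likelihood test, with unadjusted p under 0.05 for 1 of the 10, Acvr2a, and for 741 of all genes.

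**Figure D4:**
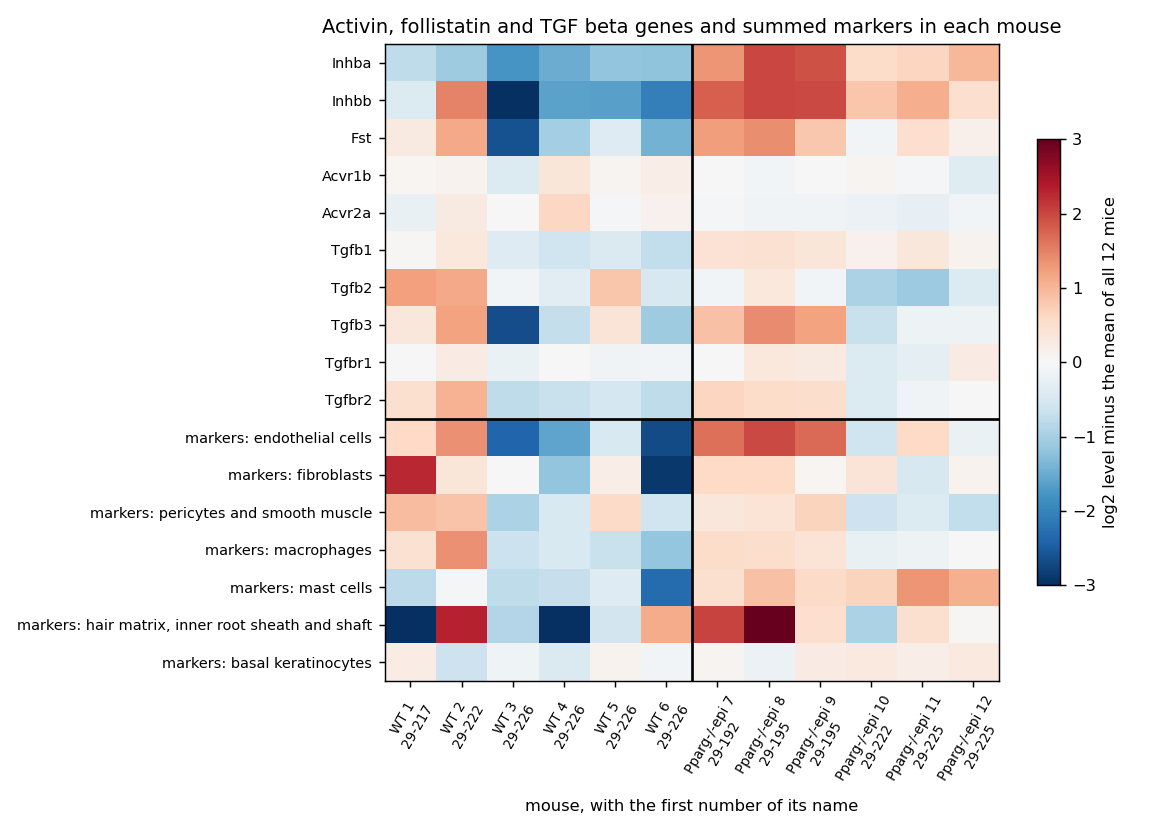
Log2 level of each of the 10 genes and of summed cell type markers in each mouse, minus the mean of all 12 mice (colour, from -3 to 3, values beyond shown at the limit), with mice ordered within each group by the first number of the mouse name. Inhba is below its mean in all 6 WT mice and above it in all 6 Pparg-/-epi mice. Inhbb, Fst, Tgfb3 and Tgfbr2 are high in WT 2 and in Pparg-/-epi 7, 8 and 9. So are the markers of endothelial cells, of macrophages and of pericytes and smooth muscle.

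After the group means were removed, the genes most like Inhba over the 12 libraries in log2 CPM were Spats2 (Pearson r 0.969), Zfp449 (0.922) and Csgalnact1 (0.913), none of which was altered. Those most like Inhbb were Gata6 (0.984), Rgs4 (0.978) and Map3k14 (0.977), all 3 of which were altered and higher. Rgs4 was 1.66 ± 2.72 CPM in WT, against 24.6 ± 9.35 CPM in Pparg-/-epi (SD, n = 6 each), a log2 fold change of 3.82 with an edgeR adjusted p of 0.00601. Those most like Fst were Pde8a (0.984), Aadacl3 (0.983) and Fgfr1 (0.979), none of them altered. Among the 10 genes the closest pair was Inhbb and Fst, at 0.96, followed by Fst and Tgfb3 at 0.954. The points of these correlations share libraries, depth and cell makeup, and they are descriptions.

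The other genes of the activin, TGF beta and BMP pathways were taken from 6 lists of 99 genes, of which 87 were listed in the table. Of these 87, 12 were altered and higher and 2 were altered and lower, 16.1% in all beside 10.3% of all genes tested, and their median log2 fold change was 0.04. Of the other ligands 3 of 10 were listed (Inha, Lefty1 and Gdf10) and 0 were altered by edgeR, the closest being Lefty1, which opposes Nodal, at a log2 difference of -0.71 and an adjusted p of 0.0919. Of the other receptors and coreceptors 8 of 9 were listed and 0 were altered, among them Tgfbr3 at a log2 difference of -0.10 and Eng at 0.97 with an adjusted p of 0.261.

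Among 18 listed binding proteins and activators of latent TGF beta, 3 were altered, all higher. Thbs1, thrombospondin 1, which can release active TGF beta from its latent complex, was 17.0 to 80.8 CPM in WT (median 29.2) against 44.1 to 253.0 CPM in Pparg-/-epi (median 163.2), with a log2 fold change of 2.05 and an adjusted p of 0.0137 by edgeR. The groups overlapped through WT 2. With the mouse name in 2 blocks (up to and after 29-217) Thbs1 lost the call, at 1.595 and an edgeR adjusted p of 0.0577. Lrrc32, which tethers latent TGF beta to the cell surface, rose by 1.35 (adjusted p 0.0461 by edgeR) and Furin, a protease that cleaves the precursors of TGF beta and activin, by 0.76 (0.0208). Lrrc32 kept its call in 4 and Furin in 9 of the 12 fits without 1 mouse, and Lrrc32 lost it with those blocks, at 0.93 (0.0786). Fstl3, a follistatin relative that binds activin, was 48.5 ± 12.6 CPM in WT, against 36.3 ± 8.63 CPM in Pparg-/-epi (SD, n = 6 each) and was not called, at an adjusted p of 0.160 by edgeR.

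Of 19 SMADs and intracellular regulators, 3 were altered and higher. Pmepa1, which is induced by TGF beta and holds back SMAD2 and SMAD3, was 5.54 to 23.9 CPM in WT (median 10.5) against 24.6 to 71.5 CPM in Pparg-/-epi (median 56.6). All 6 Pparg-/-epi mice lay above all WT mice, at a log2 fold change of 2.11 with an edgeR adjusted p of 0.00197. Skil, which encodes the SMAD corepressor SnoN, was 30.5 to 47.6 CPM in WT against 47.9 to 97.7 CPM in Pparg-/-epi, without overlap, and rose by 0.97 (0.00263). Tgif2, another corepressor, rose by 1.42 (0.0102), and its groups overlapped. The SMADs that carry the signal were not called, with log2 differences of -0.13 for Smad2, 0.09 for Smad3 and -0.04 for Smad4, nor was the inhibitory Smad7, at 0.23.

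Of 17 genes widely used as readouts of TGF beta or activin, 4 were altered, all higher, beside 5.19% of all genes altered and higher. The groups of these 4 did not overlap. Over all genes, altered or not, 3.95% showed that in the higher direction, so that share is no base for genes already called altered. Bhlhe40, a transcription factor, was 36.9 to 61.0 CPM in WT (median 44.2) against 78.6 to 155.8 CPM in Pparg-/-epi (median 103.3), a log2 fold change of 1.28 with an edgeR adjusted p of 9.65e-04. Postn, which encodes the matrix protein periostin and is also on the hair follicle marker list used here, was 24.5 to 408.5 CPM in WT against 432.0 to 1096 CPM in Pparg-/-epi and rose by 2.00 (0.0199), a call lost with the mouse name blocks, at 1.71 (0.0551). Timp1, an inhibitor of matrix metalloproteinases, was 0.378 to 1.96 CPM in WT against 2.08 to 5.34 CPM in Pparg-/-epi and rose by 1.51 (0.0325), with calls in 6 of the 12 fits without 1 mouse and none with the blocks, at 1.21 (0.0753). Tgfbi, an extracellular matrix protein gene, had lower values in Pparg-/-epi, at 425.0 to 663.7 CPM in WT against 321.4 to 396.7 CPM in Pparg-/-epi, also without overlap, and its log2 difference of -0.52 (edgeR adjusted p 0.0118) was short of the fold threshold. Ctgf, Fn1, Cdkn1a and Cdkn2b were not called, at log2 differences of -0.10, 0.30, -0.23 and -0.06.

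The BMP arm of the family, whose ligands signal through other SMADs, held altered genes in both directions, 2 higher and 2 lower of 22 listed. Bmp4 was 33.5 to 84.2 CPM in WT (median 54.6) against 17.6 to 35.6 CPM in Pparg-/-epi (median 26.0), a log2 fold change of -1.12 with an edgeR adjusted p of 0.00520. Bmp7 was 23.4 to 66.0 CPM in WT (median 32.7) against 60.8 to 99.6 CPM in Pparg-/-epi (median 84.3), and rose by 1.18 (0.00630). Bmp2 fell by 0.68 (0.0446) and the BMP antagonist gene Sostdc1 rose by 1.32 (0.0462), with calls in 4 and 3 of the 12 fits without 1 mouse and none with the blocks, at -0.61 (0.0976) and 1.11 (0.0969). Of these 14 pathway genes, 1 was called with the mice named 29-222 to 29-226 alone, Bhlhe40, and 2 without Pparg-/-epi 7, 8 and 9, Bhlhe40 and Pmepa1.

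**Figure D5:**
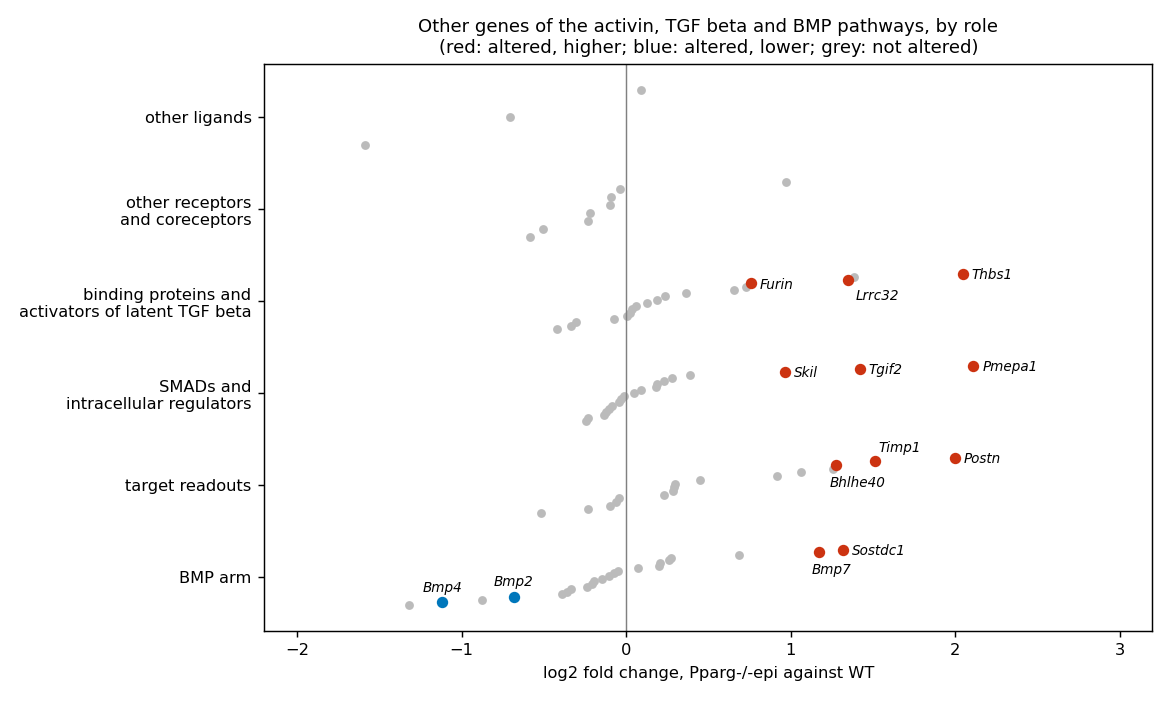
Log2 fold change of Pparg-/-epi against WT (horizontal axis) for 86 of the 87 other listed genes of the activin, TGF beta and BMP pathways, 1 point a gene, in 6 lists by role, with altered genes named (11 higher in red, 2 lower in blue). No gene in the lists of other ligands and other receptors is altered, and the altered genes of 3 other lists, the binding proteins, the SMAD regulators and the readouts, all lie to the right.

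Promoter sequences were taken from RefSeq (GRCm38.p6) for 8 of the 10 genes, all but Fst and Tgfb3. The 250 bases before the start are shown for Inhba (the altered gene), Inhbb (the other activin subunit) and Tgfb2 (the ligand gene with lower values), and the capitals mark a TATA box (TATAAA), a GC box (GGGCGG) or a CAGA box (CAGACA, a core of SMAD-bound elements) on either strand. Inhba is at chr13:16011601-16011850 (plus strand), 2624 bases upstream of the counted model, Inhbb at chr1:119422249-119422498 (minus strand) and Tgfb2 at chr1:186705990-186706239 (minus strand).
Inhba: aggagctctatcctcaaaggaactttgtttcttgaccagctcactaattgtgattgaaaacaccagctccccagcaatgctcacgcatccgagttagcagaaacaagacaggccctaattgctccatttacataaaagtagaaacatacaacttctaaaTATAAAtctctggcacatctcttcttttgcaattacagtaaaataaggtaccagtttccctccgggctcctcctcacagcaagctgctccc
Inhbb: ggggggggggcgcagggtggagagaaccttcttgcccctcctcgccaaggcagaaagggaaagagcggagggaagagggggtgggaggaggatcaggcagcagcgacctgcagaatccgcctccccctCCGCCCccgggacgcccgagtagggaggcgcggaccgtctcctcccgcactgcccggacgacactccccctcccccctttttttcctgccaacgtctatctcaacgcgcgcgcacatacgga
Tgfb2: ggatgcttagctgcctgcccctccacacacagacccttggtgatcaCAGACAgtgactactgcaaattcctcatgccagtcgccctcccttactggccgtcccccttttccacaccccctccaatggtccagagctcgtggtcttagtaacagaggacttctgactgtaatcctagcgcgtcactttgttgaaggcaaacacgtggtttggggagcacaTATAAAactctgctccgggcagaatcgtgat
Inhba has 47.7% G and C in its 300-base window, from 250 bases before to 50 after the start, beside a median of 52.7% over 32851 promoters, while Inhbb has 64.3% and Tgfb2 54.3%. The TATA box letters stand in the windows of Inhba and Tgfb2, 2 of the 8 genes, and in 13.6% of all promoters. They begin 91 bases before the start in Inhba and 31 bases before it in Tgfb2. GC box letters stand in 5 of the 8 genes, Inhbb, Acvr1b, Acvr2a, Tgfb1 and Tgfbr1, and in 35.7% of all promoters, and CAGA box letters in 2 of the 8, Tgfb2 and Tgfbr1, and in 21% of all promoters. Tgfbr1 had 2 windows, at starts 47353222 and 47386216 of chromosome 4, with the GC box letters in the first and the CAGA box letters in the second, so the genes are counted over 9 windows. Letters of an AP-1 site (TGANTCA), a CRE (TGACGTCA) and a PPAR response element of the DR1 type (AGGTCANAGGTCA) were searched in the same way, the 6 motifs being counted separately where they overlap, and stand in 0 of the 8 genes and in 7.81%, 1.79% and 0.0396% of all promoters. A match or its absence describes these letters in this window and no more.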

How the data were processed

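Per the labels and methods, the authors used STAR 2.5.2b for alignment to mm10, dropped reads of low quality or with several map positions, and counted with featureCounts of Subread 1.5.1 on refGene, the strand setting not being given in the sources used here. The deposited table holds raw counts of genes that all exceeded 0.5 CPM in at least 6 libraries, and 2800 blank rows were dropped. The columns of Pparg-/-epi 11 and 12, whose labels leave the mouse name blank, were matched through the study's list of sequenced mice.

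Counts were fitted with edgeR 4.0.16 in R 4.3.3 (TMM scaling, quasi-likelihood test, genotype alone, 12 libraries), with p-values adjusted over 14533 genes. Standard errors are the absolute log2 fold change over the root of F. On simulated data an adjusted p under 0.05 in the right direction, without the fold threshold, found 20% of 50 genes changed 1.5-fold. It found 58% at 2-fold, 82% at 4-fold and 92% at 8-fold, with 7 false calls of 133. In the data themselves 2236 genes had an adjusted p under 0.05, far more than those 133, so the shares found may differ for these data. RPKM used the table's exon lengths.

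The genes and lists were chosen with earlier results of these data known. 1 altered readout gene is counted but not reported here by name. Named were all 10 genes, up to 4 altered genes in each direction per pathway list, the 3 genes most correlated with Inhba, Inhbb and Fst, and, after their values were seen, the unaltered pathway genes, ratios and motifs. Replicate pairs differed by more than counting noise. Alternatives were the edgeR likelihood ratio test, DESeq2 1.42.0, other scalings, a filter of 10 counts in 6 libraries, covariates (sex, RIN, age, mouse name), single sexes, each mouse left out, and mouse subsets chosen after seeing the data.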

Additional observations from a re-analysis of the deposited data

Results flagged for a closer look

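In groups of 6 mice, the gap between an extreme mouse and the next, as a share of the group's range, exceeded the 95% critical value of Dixon's test in 5 of 48 group and gene combinations examined. Chance flags about 1 in 20. Inhbb in WT 2 was 49.14 CPM, with the next WT mouse at 13.1 CPM (gap 0.748). Thbs1 in WT 2 was 80.77 CPM, with the next at 35.03 CPM (0.717), and Pmepa1 in WT 2 was 23.88 CPM, with the next at 11.85 CPM (0.656), so 3 of the 5 fell on the same mouse. Bmp2 in WT 5 was 34.85 CPM, with the next at 19.2 CPM (0.745). Acvr1b in Pparg-/-epi 12 was the lowest of its group at 68.19 CPM, with the next at 83.8 CPM (0.629).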

How the results depend on the processing

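No paired analysis was run, because the labels number the 12 mice through and do not pair mice of the groups. The study describes the WT mice as sibling controls without naming pairs, and only the number 29-222 occurs in both groups. The count of altered genes (1493) ran from 1116 to 2249 when each mouse was left out in turn, lowest without Pparg-/-epi 9 and highest without WT 2, and was 651 in female mice, 18 in male mice, 531 in the mice named 29-222 to 29-226, 2968 without WT 1 and 2, and 559 without Pparg-/-epi 7, 8 and 9. The count for the 10 genes (1) was 2 by the likelihood ratio test, by DESeq2, with age and with the mouse name in 2 blocks (up to and after 29-217), 3 with RIN, 0 in male mice, 1 to 4 without each mouse, and 5 without WT 1 and 2. The count for the 87 pathway genes (14) was 8 with those blocks, 4 in female and 0 in male mice, 9 to 18 without each mouse (lowest without Pparg-/-epi 7 or 9, highest without WT 2), 1 in the mice named 29-222 to 29-226, 28 without WT 1 and 2, and 2 without Pparg-/-epi 7, 8 and 9. The fits of mouse subsets held fewer mice. The cause of the changes in these counts was not tested.

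The sign turned for Tgfbr1 with RIN (-0.0176), with the blocks (-0.00862), without Pparg-/-epi 8 (-0.0108, in a range of -0.0108 to 0.141 without each mouse), in the mice named 29-222 to 29-226 (-0.11) and without Pparg-/-epi 7, 8 and 9 (-0.12). It turned for Tgfb3 (-0.30, -0.29 and -0.38) and Tgfbr2 (-0.0536, -0.0361 and -0.18) in male mice, in the mice named 29-222 to 29-226 and without Pparg-/-epi 7, 8 and 9. No reversed value passed the threshold. At 6 mice a group, changes of 1.5-fold were mostly missed in a simulation with far fewer called genes than these data. Genes not called are not shown to be unchanged.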
